A study of Mus musculus with 6 samples.

Results

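Cathepsins are the proteases of lysosomes and endosomes. The 10 genes described here, Ctsa, Ctsb, Ctsc, Ctsd, Ctse, Ctsh, Ctsk, Ctsl, Ctss and Ctsz, were chosen by name as members of this family. A gene was included where the array annotation gave a row exactly 1 symbol among these names, and all 10 were found, each on 1 row, among 19938 genes tested. Expression was read on 6 arrays. Each held RNA of liver cells sorted as CD11b+Gr-1+, which the labels call myeloid-derived suppressor cells, an immature mixture of granulocytic and monocytic cells. All donors were C57BL/6 mice with established EL4 tumours, a transplanted T cell lymphoma. One group of 3 arrays came from mice injected with PBS, called untreated in the titles, and the other 3 from mice injected with type IV concanavalin A (Con A), a lectin that activates T cells and injures the liver. Cells were collected 3 hours after injection in both groups. The Con A dose appears as 12.5 mg/kg in one label and 12.5 ug/kg in another, and was not settled. The ages and sexes of the mice were not given, and no label ties an array to 1 mouse, so the p-values measure the spread between these arrays, which may be partly technical.

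Most cathepsins are made as inactive precursors, sorted to the lysosome by the mannose 6-phosphate signal and activated there by acid and by each other. Of the 10, 7 are cysteine proteases of the papain type (Ctsb, Ctsc, Ctsh, Ctsk, Ctsl, Ctss and Ctsz), 2 are aspartic proteases of the pepsin type (Ctsd and Ctse), and 1, Ctsa, is a serine carboxypeptidase. In myeloid cells they digest engulfed protein, trim the invariant chain and antigens for MHC class II, and activate the serine proteases of granules. Cystatins and related proteins inhibit the cysteine group, and the transcription factors of the TFEB family switch on lysosomal genes together through a DNA element called CLEAR, whose core is the E-box CACGTG.

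The 250 bases before the annotated start of 4 members are printed. Ctsd, Ctsa and Ctsl were taken for CACGTG, and Ctss for the core GAAANNGAA of the interferon-stimulated element. Ctsc, which held a match to the interferon-gamma activated site, is not printed. The sequences are from RefSeq (GRCm38.p6), which had a window for 7 of the 10 members (Ctsa, Ctsc, Ctsd, Ctsk, Ctsl, Ctss and Ctsz). Each is written 5′ to 3′ on the strand of the gene, with matches in capitals.
Ctsd (chr7:142387828-142388077, minus strand): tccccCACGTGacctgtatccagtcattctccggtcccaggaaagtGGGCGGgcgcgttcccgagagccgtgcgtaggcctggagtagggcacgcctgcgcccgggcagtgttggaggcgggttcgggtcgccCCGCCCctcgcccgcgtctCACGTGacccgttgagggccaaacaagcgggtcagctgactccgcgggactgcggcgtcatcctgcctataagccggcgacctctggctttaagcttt
Ctsa (chr2:164833523-164833772, plus strand): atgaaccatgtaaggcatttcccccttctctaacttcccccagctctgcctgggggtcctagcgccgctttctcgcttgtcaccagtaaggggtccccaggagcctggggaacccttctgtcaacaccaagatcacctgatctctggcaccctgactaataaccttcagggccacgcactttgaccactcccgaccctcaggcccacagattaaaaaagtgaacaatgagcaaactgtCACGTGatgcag
Ctsl (chr13:64370521-64370770, minus strand): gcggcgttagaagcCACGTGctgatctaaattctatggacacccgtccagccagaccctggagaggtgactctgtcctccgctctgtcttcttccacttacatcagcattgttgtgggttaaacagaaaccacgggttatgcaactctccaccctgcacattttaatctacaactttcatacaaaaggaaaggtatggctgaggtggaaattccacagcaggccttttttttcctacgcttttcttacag
Ctss (chr3:95526536-95526785, plus strand): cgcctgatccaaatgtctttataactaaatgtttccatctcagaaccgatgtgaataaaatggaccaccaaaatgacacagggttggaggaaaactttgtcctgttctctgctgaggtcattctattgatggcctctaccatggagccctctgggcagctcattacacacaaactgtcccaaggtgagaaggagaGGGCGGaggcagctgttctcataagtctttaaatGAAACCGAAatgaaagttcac

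Searches covered both strands for 4 motifs, which are CACGTG, the interferon-gamma activated site TTCNNNGAA, the core GAAANNGAA of the interferon-stimulated element, and the GC box GGGCGG. The window of Ctsd held CACGTG at 2 places, 245 to 240 and 98 to 93 bases before the start, with the GC box at 2 others. The second window of Ctsa held CACGTG 12 to 7 bases before the start, and the window of Ctsl held it 236 to 231 bases before the start. The first window of Ctsa, not printed, held 0 matches to the 4 motifs, and a gene was counted if any of its windows matched. CACGTG was thus found in 3 of the 7 members with a window, against 6.86% of 27025 genes and 6.02% of 32851 windows in the table. GAAANNGAA was found in 1 member, Ctss, as GAAACCGAA 21 to 13 bases before the start (8.18% of all genes), and TTCNNNGAA in 1, Ctsc, as TTCCTTGAA (8.13%). The GC box was found in 4 of the 7 members, Ctsc, Ctsd, Ctss and Ctsz, against 35.4% of all genes, and in Ctsz its 2 matches share a base. A match is a run of letters and not evidence that a factor binds there.

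After Con A, 1 cathepsin gene fell, 0 rose and 9 did not pass the test. That gene was Ctsd, which encodes cathepsin D, the main aspartic protease of lysosomes, and its level was 1.43-fold lower. A gene is called here when its adjusted p was under 0.05 by limma, with Benjamini-Hochberg adjustment over all genes. By that rule 7.22% of all 19938 genes were lower, 4.59% were higher and 11.8% changed either way, so 1 in 10 is close to the background. At an unadjusted p under 0.05, 3 members (Ctsd, Ctsh and Ctsa), all lower after Con A, stood against 24.7% of all genes. Differences are Con A minus PBS, and 8 of the 10 were below 0, against 44.0% of all genes. The median of the members was -0.20, and that of all genes was 0.02.

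**Figure D1:**
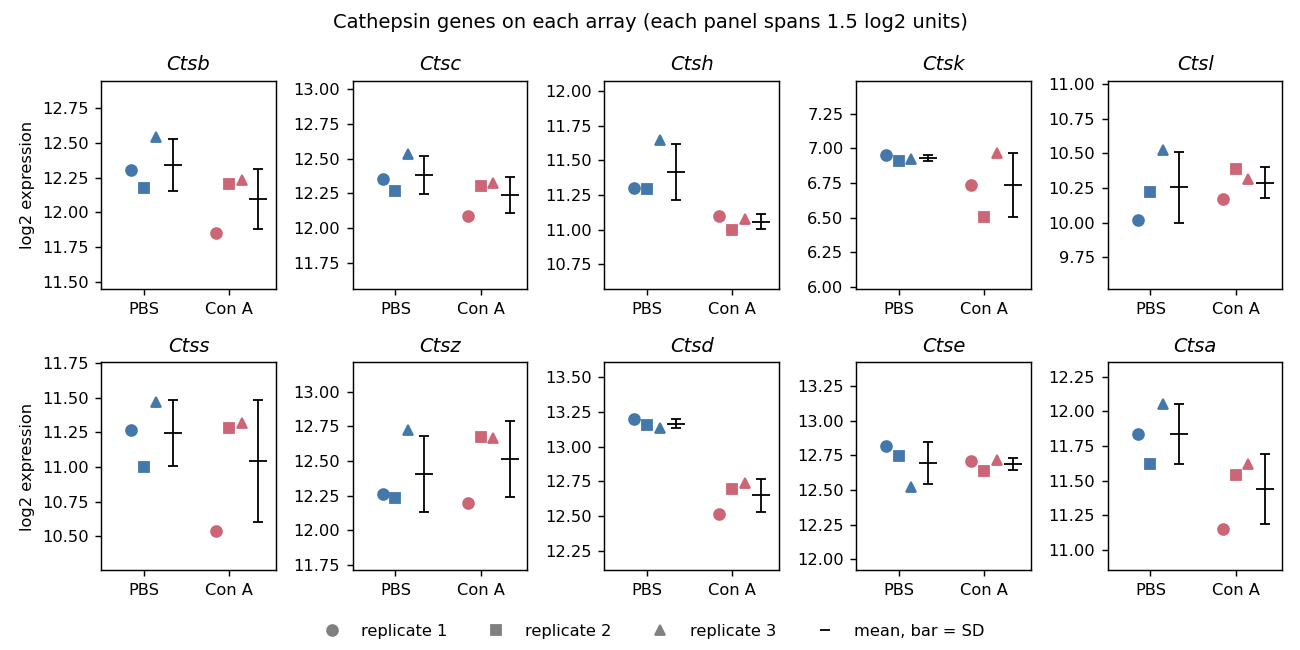
Level of each cathepsin gene (log2 expression, vertical axis) on the 3 PBS arrays (blue) and the 3 Con A arrays (red), with a marker shape for each replicate number and the group mean ± SD in black; every panel spans the same number of log2 units. The groups are apart for Ctsd and Ctsh and overlap for the other 8 genes.

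Of the aspartic proteases, Ctsd stood at 13.20, 13.15 and 13.14 on PBS arrays 1 to 3 and at 12.51, 12.70 and 12.74 on Con A arrays 1 to 3 (log2 levels). The groups did not overlap, and each Con A array lay 0.43 to 0.65 below the PBS mean. Ctsd fell by 0.52, from 13.16 ± 0.03 to 12.65 ± 0.12 (SD, n = 3 per group; 95% interval -0.71 to -0.32; limma adjusted p = 0.00806). With 1 array left out at a time the fall ranged from 0.45 to 0.56, and the adjusted p from 0.0114 to 0.0436. These levels are near the top of the arrays, whose highest values were 14.2 to 14.3, and whether differences are narrowed there was not tested. Ctse encodes cathepsin E, an endosomal aspartic protease of immune and gastric cells. It stood at 12.82, 12.75 and 12.52 after PBS and at 12.71, 12.64 and 12.72 after Con A, so all Con A arrays lay inside the PBS range. Its difference was -0.01 (95% interval -0.22 to 0.21; adjusted p = 0.976), and the interval leaves out a change of the size measured for Ctsd. Its sign turned with PBS replicate 1 (0.05), PBS replicate 2 (0.02) or Con A replicate 2 (0.02) left out.

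Ctsa encodes the protective protein that holds beta-galactosidase and neuraminidase 1 together in the lysosome. Its levels were 11.84, 11.62 and 12.05 after PBS and 11.15, 11.54 and 11.62 after Con A. The groups overlapped, with Con A replicate 3 just above PBS replicate 2. The difference was -0.40 ± 0.15 (SE; 95% interval -0.76 to -0.03), with an adjusted p of 0.163. It was -0.25 with Con A replicate 1 left out. Of its 2 partners, picked for that role after their values were seen, the neuraminidase gene Neu1 fell by 0.47 (adjusted p = 0.0304), while the galactosidase gene Glb1 differed by 0.31 and did not pass (adjusted p = 0.17).

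Among the cysteine proteases, Ctsh was the 1 whose groups did not overlap. Across all genes 29.9% had groups that did not overlap, against 2 of the 10 members, Ctsd and Ctsh. Ctsh encodes cathepsin H, an aminopeptidase. It stood at 11.30, 11.29 and 11.65 after PBS and at 11.10, 11.00 and 11.08 after Con A. Its difference of -0.36 (95% interval -0.61 to -0.10) missed the threshold at an adjusted p of 0.0857, and at 0.071 to 0.239 over the 13 alternatives. PBS replicate 3 was its highest array, and without it the difference was -0.24.

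Ctsb, Ctsc and Ctss had overlapping groups and the same lowest array. Ctsb encodes cathepsin B, an abundant protease that can leak from damaged lysosomes, and its levels were 12.31, 12.18 and 12.55 after PBS and 11.85, 12.21 and 12.23 after Con A. Ctsc encodes cathepsin C, which activates the granule serine proteases, and stood at 12.35, 12.27 and 12.53 against 12.09, 12.30 and 12.33. Ctss encodes cathepsin S, which cuts the invariant chain in antigen-presenting cells, and stood at 11.27, 11.00 and 11.47 against 10.54, 11.28 and 11.32. In all 3 genes, as in Ctsa and Ctsz, Con A replicate 1 was the lowest of the 6 arrays and PBS replicate 3 the highest. The differences of Ctsb, Ctsc and Ctss were -0.25 (95% interval -0.57 to 0.07), -0.14 (-0.38 to 0.09) and -0.20 (-0.72 to 0.32). Their adjusted p were 0.328, 0.45 and 0.642. With Con A replicate 1 left out those of Ctsb, Ctsc and Ctss became -0.12, -0.07 and 0.05, and with PBS replicate 3 left out they became -0.15, -0.07 and -0.09.

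Ctsl and Ctsz were the members with differences above 0, and neither passed. Ctsl encodes cathepsin L, a strong lysosomal endopeptidase, and stood at 10.02, 10.22 and 10.53 after PBS and at 10.17, 10.39 and 10.31 after Con A. All its Con A arrays lay within the PBS range (difference 0.03, 95% interval -0.28 to 0.35, adjusted p = 0.911), and it was -0.08 and -0.01 with PBS replicate 1 or Con A replicate 2 left out. Ctsz encodes cathepsin Z, also called X, a carboxypeptidase. It stood at 12.26, 12.23 and 12.72 after PBS and at 12.20, 12.67 and 12.67 after Con A, with a difference of 0.11 (95% interval -0.30 to 0.52, adjusted p = 0.768). That difference was 0.27 with PBS replicate 3 or Con A replicate 1 left out, and 0.02 to 0.04 with any other array left out.

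Ctsk encodes cathepsin K, the collagen-degrading protease of osteoclasts. Its levels were 6.95, 6.91 and 6.92 after PBS and 6.73, 6.50 and 6.97 after Con A. Con A replicate 2 was the lowest and Con A replicate 3 the highest of the 6. No detection calls were used here, so it cannot be said that these cells express it. The difference was -0.19 (95% interval -0.47 to 0.08, adjusted p = 0.379), and it was -0.08 with Con A replicate 2 left out and -0.31 with Con A replicate 3 left out. Of 10 osteoclast-type markers, 0 rose and 2 fell, Nfatc1 by 0.86 (adjusted p = 0.00416) and Mmp9 by 0.58 (adjusted p = 0.00401), both of which other myeloid cells also express.

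**Figure D2:**
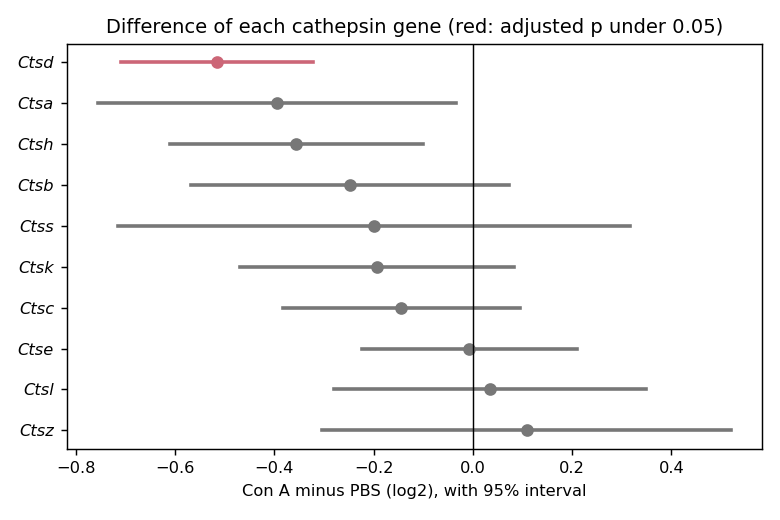
Difference of each cathepsin gene, Con A minus PBS on the log2 scale (horizontal axis), with the 95% interval of the limma fit; the gene past the threshold is red. The interval lies wholly below 0 for Ctsd, Ctsa and Ctsh, of which Ctsd alone passed after adjustment over all genes.

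Many members ranked the arrays of a group alike. PBS replicate 3 was the highest of its group for 7 of the 10 members (Ctsb, Ctsc, Ctsh, Ctsl, Ctss, Ctsz and Ctsa), against 32.6% of all genes. Con A replicate 1 was the lowest of its group for 7 (Ctsb, Ctsc, Ctsl, Ctss, Ctsz, Ctsd and Ctsa), against 32.2% of all genes. The mean of 10 measured genes of MHC class II antigen processing moved with this, at 10.08, 10.09 and 11.13 on PBS arrays 1 to 3 and at 9.46, 10.07 and 10.71 on Con A arrays 1 to 3. The mean of 10 dendritic cell markers was likewise highest on the replicate 3 arrays, at 8.48 after PBS and 8.50 after Con A, against 7.75 to 8.0 on the other 4. Of these markers, 5 (Cd209a, Ccr7, Itgax, Batf3 and Zbtb46) were highest on replicate 3 in both groups, while 4 (Clec9a, Wdfy4, Siglech and Xcr1) were lowest there in 1 group. The part of other antigen-presenting cells in the spread of Ctsa, Ctsb, Ctsc, Ctss and Ctsz was not tested. In bulk cells, fewer cells of a type and less RNA per cell cannot be told apart. Ctsd and Ctse did not share the high PBS replicate 3, where both had the lowest value of their PBS group, though the PBS values of Ctsd spanned only 0.06. Con A replicate 3 was the highest of its group for 7 of the 10 members, Ctsd and Ctse among them, against 29.2% of all genes.

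**Figure D3:**
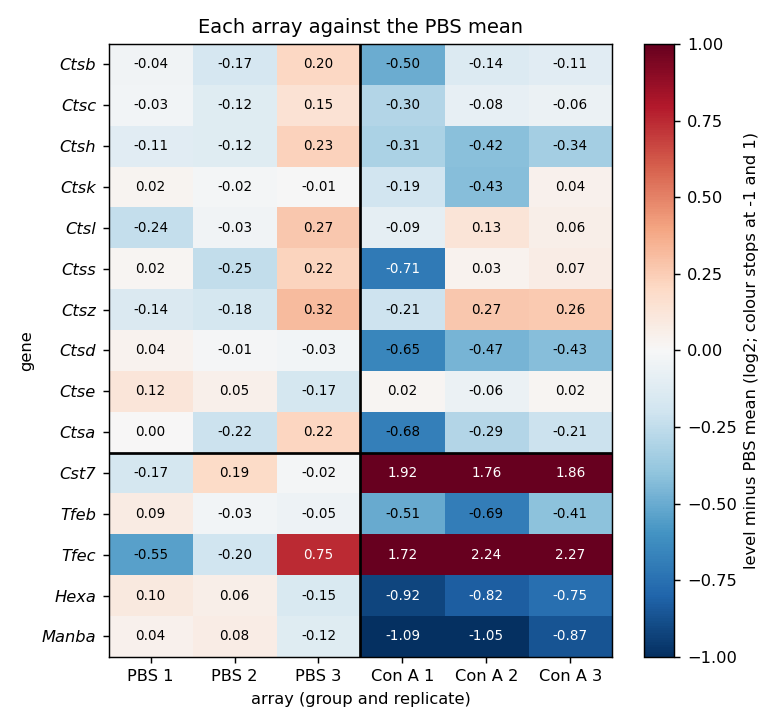
Each array's level minus the mean of the 3 PBS arrays (log2, printed in each cell and coloured up to 1 in either direction) for the 10 cathepsins, above the line, and for the inhibitor gene Cst7, the regulators Tfeb and Tfec and the hydrolase genes Hexa and Manba, below it. The Con A columns are all below 0 for Ctsd, Ctsa, Ctsh, Ctsb and Ctsc, and near or on both sides of 0 for Ctse, Ctsl, Ctsz, Ctss and Ctsk.

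Among inhibitors, Cst7 had a larger difference than any of the 10 cathepsins. It encodes cystatin F, which blocks cathepsin C and other cysteine cathepsins inside myeloid and cytotoxic cells. Cst7 stood at 8.52, 8.89 and 8.67 after PBS and at 10.62, 10.45 and 10.55 after Con A. It rose 3.59-fold, by 1.85 on the log2 scale (95% interval 1.60 to 2.10, adjusted p = 0.000469), and kept the call under all 13 alternatives. It was the 1 gene of 15 measured genes, called inhibitors here, to pass, with 0 lower. Beside cystatins the list held Serpinb1a, Serpinb6a and Serpinb9, of the serpins, a family that mostly inhibits serine proteases. Whether each product inhibits the 10 cathepsins was not tested. The median difference of the 15 was 0.35, and 5 had mean levels under 6. At an unadjusted p under 0.05, 7 were higher and 1 lower, against 24.7% of all genes in either direction. The 7 included Serpinb1a and Serpinb9. They also included Ctla2a, Ctla2b and Kng2, with mean levels of 5.37, 5.86 and 5.74, each highest on Con A replicate 2. With 1 array left out a second inhibitor passed in 3 fits, which was Ctla2a without Con A replicate 1 (difference 2.09, adjusted p = 0.00672), Csta2 without PBS replicate 2 (0.92, adjusted p = 0.0391) or Serpinb9 without PBS replicate 3 (1.19, adjusted p = 0.0152). Cystatin C and stefin B, encoded by Cst3 and Cstb and named here after their values were seen, differed by -0.23 and -0.19 and did not pass (adjusted p = 0.192 and 0.578).

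Of 12 granule serine protease genes, whose products cathepsin C activates, 2 rose and 0 fell. Gzmb, granzyme B of cytotoxic cells, rose by 1.75 (adjusted p = 0.0151), a call lost without PBS replicate 1 (0.0737) or Con A replicate 1 (0.0528). Ctsg encodes cathepsin G, a neutrophil serine protease that shares only the cathepsin name, and rose by 0.83 (adjusted p = 0.0407). That call was lost with any array but PBS replicate 2 left out (adjusted p 0.069 to 0.129), and with arrays centred on their median (0.0533). The number that rose in the granule list was 0 with PBS replicate 1 or Con A replicate 1 left out, and 1 with either replicate 3 left out. Prss57, a neutrophil serine protease gene that differed by -0.95 (adjusted p = 0.0633), passed as lower with PBS replicate 3 left out (-1.23, adjusted p = 0.00483). Ctsg was also the 1 gene to rise, with 0 lower, among 11 other cathepsin-named genes, of which 6 had mean levels under 6.

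Of 33 other measured genes for lysosomal hydrolases and their activator proteins, called hydrolase genes here, 12 fell and 0 rose. One of the 12, Psap, which fell by 0.45 (adjusted p = 0.0312), encodes sphingolipid activators and is not itself an enzyme gene. That is 36.4% against the 7.22% of all genes lower, and 30 had a difference below 0, with a median of -0.38. Manba, beta-mannosidase, fell by 1.00, from 9.04 ± 0.10 to 8.04 ± 0.12 (adjusted p = 0.00121). Sgsh, which degrades heparan sulphate, fell by 0.94 (adjusted p = 0.00273), and Hexa, a hexosaminidase subunit, by 0.83 (adjusted p = 0.00202). Lipa, the lysosomal acid lipase gene, fell by 0.79 (adjusted p = 0.0125), a call lost with PBS replicate 1 (0.0547) or Con A replicate 2 (0.0569) left out. The count of falls was 7 with Con A replicate 1 left out and 6 with Con A replicate 2 left out. CACGTG was found in the windows of 8 of 30 hydrolase genes, in 2 of 10 that fell and in 6 of 19 that were tested and did not.

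Of 24 genes of the lysosomal membrane and its proton pump, 4 rose and 5 fell, with a median of -0.03. Among pump genes, named here after their values were seen, Atp6v1a rose by 0.58 and Atp6v0a1 by 0.45 (adjusted p = 0.00949 and 0.0221). Atp6v1b2 fell by 0.35 (adjusted p = 0.017), and the other pump genes did not pass. Scarb2, a receptor that carries glucocerebrosidase to the lysosome, fell by 0.70 (adjusted p = 0.00135), the cholesterol exporter gene Npc1 by 0.77 (0.00946) and the macrophage glycoprotein gene Cd68 by 0.73 (0.0202), while the chloride exchanger gene Clcn7 rose by 0.96 (0.016). Without PBS replicate 1 Npc1, Cd68 and Clcn7 missed the threshold (adjusted p = 0.0509, 0.082 and 0.0724), and Clcn7 also missed it without Con A replicates 2 (0.0754) or 3 (0.0606). In this list the number that rose was 2 without PBS replicate 1, Con A replicate 2 or Con A replicate 3, and the number that fell was 1 without PBS replicate 1, or 3 where Con A replicate 1 or 3 was left out. Lysosomal sorting genes fell in 4 of 11 cases and rose in 0, with the endocytic receptor gene Lrp1 at -1.27, Nagpa, which uncovers the mannose 6-phosphate tag, at -0.54, the sorting receptor gene Sort1 at -0.51 and the adaptor gene Gga3 at -0.42. This count was 0 without PBS replicate 1 or Con A replicate 2, 1 without Con A replicate 1, 2 without PBS replicate 2 or Con A replicate 3 and 3 without PBS replicate 3. Each of these 4 genes lost its call with PBS replicate 1 or Con A replicate 2 left out, and over all arrays left out in turn the adjusted p reached 0.0833 for Lrp1, 0.135 for Nagpa, 0.153 for Sort1 and 0.0917 for Gga3.

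Regulators of lysosomal genes moved in both directions. Of 11 genes, 1 rose and 4 fell. Tfeb, the principal activator of the CLEAR network, stood at 9.61, 9.50 and 9.47 after PBS and at 9.02, 8.84 and 9.12 after Con A. It fell by 0.54 (adjusted p = 0.0109, and 0.0537 without PBS replicate 1). Tfec, a relative made in macrophages, stood at 8.99, 9.34 and 10.29 against 11.27, 11.78 and 11.81. It rose 4.22-fold, by 2.08 (adjusted p = 0.00671). Tfe3 and Mitf, the other TFEB family genes of the list, differed by 0.02 and -0.05 and did not pass (adjusted p = 0.919 and 0.908). Rragd, a GTPase of nutrient sensing at the lysosome, fell by 1.20 (adjusted p = 0.00145), and Zkscan3, a repressor of lysosomal genes, fell by 0.47 (adjusted p = 0.0115, and 0.0509 without PBS replicate 1). The number that fell was 1 without PBS replicate 1.

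**Figure D4:**
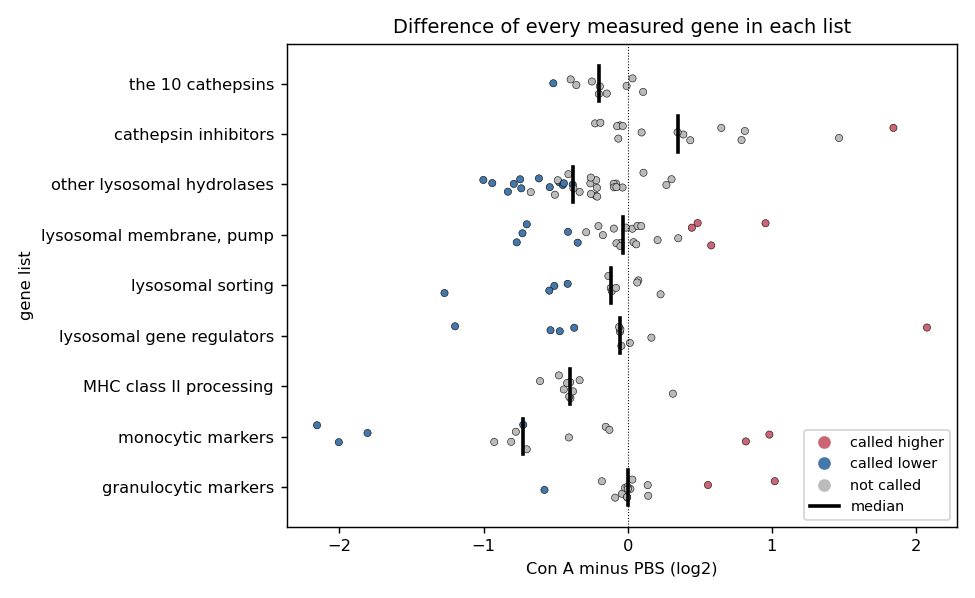
Difference of every measured gene (points, Con A minus PBS, log2) in the cathepsin family, 6 related lists and 2 cell marker lists, with genes called higher in red, called lower in blue and not called in grey, and the list median as a bar. The 12 blue hydrolase genes stand beside 1 blue cathepsin gene.

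Neighbouring steps of protein breakdown were measured for context. Genes of MHC class II processing had 0 of 10 past the threshold by limma, and 1, H2-Oa, was higher at an unadjusted p under 0.05, with the largest differences at -0.61 for the class II activator gene Ciita and -0.48 for H2-DMa (adjusted p = 0.55 and 0.596). Of 13 proteases and inhibitors of the extracellular matrix, 1 rose and 2 fell. The collagenase gene Mmp13 rose by 2.35 (adjusted p = 0.0125, and 0.0609 without PBS replicate 1, while 2 genes of this list rose without PBS replicate 3), and Timp2 and Mmp9 fell by 0.78 and 0.58 (adjusted p = 0.00806 and 0.00401).

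Genes with the profile most like that of Ctsd were sought across the table. Over the 6 arrays, and among 7400 named genes with a mean level of at least 8, the closest were Zfp809 and Abcg1 (Pearson r = 0.998 for each) and Tmem127 (r = 0.995). The arrays form 2 separate groups, so r mostly reflects the gap between them and has no p. Zfp809 and Abcg1 fell by 0.87 and 1.01 (adjusted p = 0.0022 for each), and Tmem127 differed by -0.20 without passing (adjusted p = 0.115).

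Cell markers place these values. The granulocytic list had a mean of 13.225 to 13.294 after PBS and 13.301 to 13.332 after Con A, groups that did not overlap. Of its 15 genes, 2 were higher (1 with PBS replicate 1 or Con A replicate 2 left out) and 1 lower. The monocytic list was 10.9 to 11.3 after PBS and 10.2 to 10.6 after Con A, groups that did not overlap either. In it 2 of 13 genes were higher, Irf8 by 0.98 and Cd14 by 0.82 (adjusted p = 0.0189 and 0.017). The 4 lower genes included F13a1, Ccr2 and Cx3cr1, which fell by 2.16, 2.00 and 1.81. At an unadjusted p under 0.05, 2 were higher and 9 lower, against 24.7% of all genes in either direction. The number that rose was 0 with PBS replicate 1, Con A replicate 2 or Con A replicate 3 left out and 1 with PBS replicate 2 left out, and the number that fell was 3 to 6. The part of monocytic cells in the lower level of Ctsd and of the hydrolase genes was not tested. Other lists gave 1 gene higher and 2 lower of 14 for Kupffer cells, 0 and 1 of 10 for dendritic cells, 5 and 0 of 11 for eosinophils, basophils and mast cells, and 1 and 1 of 10 for endothelial and stellate cells. They gave 0 and 1 of 6 for B cells, 1 and 0 of 5 for platelets and erythroid cells, and 0 and 0 of 11, 8 and 8 for hepatocytes, T cells with EL4, and NK cells, where limma put 0, 1 (Cd28) and 1 (Gzma) at an unadjusted p under 0.05, both higher. In the eosinophil list the 5 became 1 with PBS replicate 1 or 3 or Con A replicate 1 or 3 left out, or with arrays centred on their median. With 1 array left out, 3 NK genes rose without Con A replicate 2, 3 platelet or erythroid genes rose without Con A replicate 1, and 3 B cell genes fell without PBS replicate 3. The dendritic and the endothelial falls were both lost without PBS replicate 1 or Con A replicate 2, and the B cell fall without any of PBS replicates 1 and 2 and Con A replicates 1 and 2. The mean of the Kupffer list was 7.82 to 8.12 after PBS and 7.74, 9.09 and 8.24 on Con A arrays 1 to 3. The mean of the hepatocyte list was also highest on Con A replicate 2, at 7.80, against 7.12 to 7.20 on the other arrays. The NK list had its lowest mean there, at 7.39. The part of other liver cells in the cathepsin values of that array was not tested.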

How the data were processed

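Total RNA was amplified and labelled with biotin for a mouse Affymetrix gene array, per the labels' protocols. The values deposited by the authors are log2 expression values, with RMA and Partek named in the submitters' processing notes without versions or settings. The annotation gave 1 symbol to 21789 of 35556 rows, several to 1621 and none to 12146. Only rows with 1 symbol were used, and the row with the highest mean stood for a gene. All 10 cathepsins had 1 row.

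Con A was compared with PBS on all 19938 genes in R 4.3.3 with limma 3.58.1 (two-sided; lmFit, then eBayes), with Benjamini-Hochberg adjustment. Levels were not ranked between genes, since probes differ in response. Promoters, counts and plots used Python 3.11.15 with matplotlib 3.10.9 and pandas 2.3.3. The number of arrays limits the precision, and 3 against 3 arrays allow no exact permutation p below 0.1. The members and gene lists were chosen with earlier results of these data known. Named genes were all members, and per list up to 4 called genes with the largest difference, or 2 where none was called. Some further genes, such as Cd14, Tfe3 and Mitf, were named after their values were seen. For marker lists the text gives mainly counts. Scripts were first run on simulated arrays whose changes were known. Alternatives were 1 array left out, the replicate number as a block, array centring, repeated quantile normalization, row averaging, a filter at a mean level of 6, a trended robust fit and array weights.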

Additional observations from a re-analysis of the deposited data

How the results depend on the processing

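Ctsd kept its fall under all 13 alternatives, and no other member passed the test under any of them. Leaving out 1 array at a time turned the sign of 3 members that had not passed, with differences from -0.0838 to 0.17 for Ctsl, -0.336 to 0.0542 for Ctss and -0.0932 to 0.0538 for Ctse, and the cause was not tested. Over all genes, with 1 array left out, 458 to 1114 were higher (915 with all arrays) and 682 to 1651 lower (1440), the lowest counts without PBS replicate 1 and the highest without PBS replicate 3. Left-out arrays gave 6 to 10 hydrolase genes lower, 2 to 5 membrane and pump genes higher and 1 to 5 lower, 0 to 3 sorting genes lower, 1 to 3 regulators lower and 1 to 2 inhibitors higher. The cause of these moves was not tested. Repeated quantile normalization made 1 hydrolase gene higher, Glb1 (0.36, adjusted p = 0.0419). Array weights gave 3 granule protease genes higher and 1 lower, and a trended robust fit gave 2 eosinophil-list genes higher (5 in the report). With the replicate number as a block the counts were 1015 higher and 1524 lower, 2 inhibitors rose, 4 granule protease genes rose and 1 fell, 8 monocytic markers fell, 15 hydrolase genes fell, Ctsd had an adjusted p of 0.0161 and no call of a member changed. Whether the numbers pair the arrays was not settled. Deviations of same-numbered arrays from their group means correlated at 0.23, -0.17 and 0.56, and PBS replicate 2 was closest to Con A replicate 1 (0.54). With 3 arrays per group the deviations of a gene sum to 0, which constrains these correlations, so they cannot decide it. Of 52 other genes named by rule, those most like Ctsd included, 29 kept their side of the threshold under every alternative that tested them and 23 did not. Among those called with all arrays, 0 turned sign, and sign turns of uncalled genes were not counted.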
